A study of Mus musculus with 18 samples.

Results

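The genes examined here encode the potassium, sodium and calcium channels of excitable cells and their auxiliary subunits. They were taken from a gene-level RNA-seq table by symbol, as the Kcn, Scn, Cacna1, Cacna2d, Cacnb and Cacng families. The table holds 133 such rows of 34244 named rows, for 132 symbols, with 92 potassium, 15 sodium and 26 calcium channel rows. RNA came from whole mouse embryos of the FVB strain at E11.5, 1 library per embryo, from 3 Dnmt3b+/+ embryos, 3 labelled Dnmt3b-/- and 3 Dnmt3bCI/CI. The Dnmt3b-/- embryos carry a conventional null allele made from a floxed allele. The Dnmt3bCI/CI embryos carry a knock-in of 2 changed residues at the catalytic site of the DNA methyltransferase Dnmt3b. The authors conclude from their assays that this protein very likely lacks catalytic activity, but do not exclude a residue of it. The CI allele was obtained in more than 1 founder line. Embryos came from heterozygous matings and only live ones were collected, which limits the Dnmt3b-/- group to embryos that had survived to that day. The comparisons ask how the channel genes differ when Dnmt3b is missing, and when it is present with the changed catalytic site.

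Voltage-gated potassium, sodium and calcium channels are built around a pore that opens with a change of membrane potential. Sodium and calcium channels pass current into the cell and start or carry the action potential, whereas potassium channels pass current out and end it or set the resting potential. Auxiliary subunits bind the pore-forming ones and change their gating or their number at the membrane. At midgestation such genes are used by newly formed neurons of the spinal cord and sensory ganglia, by the beating heart, by the first skeletal muscle and by the walls of blood vessels.

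Library totals, worked back from the steps of the values and the exon lengths, ranged from 38451730 to 49808779 reads. Values are in FPKM, which scales reads by gene length and library size, so that levels can be compared between genes. Dnmt3b itself, counted over its whole length, had 2.25, 1.62 and 2.04 FPKM in Dnmt3b+/+ and 2.45, 3.12 and 3.33 FPKM in libraries with the Dnmt3b-/- label, where it was thus no lower, and for this reason those embryos are referred to by label. Markers of whole organs differed widely between embryos of 1 genotype. The summed level of 6 hepatocyte markers was 0.276 FPKM in Dnmt3b+/+ embryo 2 and 40.99 to 215 FPKM in the other 8 embryos. Likewise, 8 heart muscle markers summed to 2.12 FPKM in Dnmt3b+/+ embryo 1 and 2.43 FPKM in Dnmt3bCI/CI embryo 3, against 24.9 to 119.9 FPKM in the other 7. In whole embryos, fewer cells of a type and less RNA per cell cannot be told apart.

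Most channel genes were expressed at low levels. In Dnmt3b+/+ embryos the median of the 133 rows was 0.560 FPKM; 5 rows had a mean of at least 10 FPKM, 34 lay between 1 and 10, 72 between 0.1 and 1, and 22 below 0.1. The calcium channels held the highest values. Cacnb3, a cytoplasmic β subunit of neuronal calcium channels, measured 23.6, 31.7 and 27.6 FPKM across the 3 embryos of that genotype, and Cacna1g, which encodes the T-type channel Cav3.1, had 20.3, 19.0 and 18.8 FPKM. These ranges do not overlap, since the lowest Cacnb3 value lay above the highest Cacna1g value. Next came Cacng7 (15.5, 18.7 and 16.7 FPKM) and Cacng4 (12.6, 22.6 and 15.0 FPKM), which are γ subunits of the group that also binds AMPA receptors, and whose values overlap each other. Cacna1h, the T-type channel Cav3.2, had 9.85, 11.4 and 10.3 FPKM. Among the potassium channels the highest was Kcnh2, the ERG channel of cardiac repolarization, with 5.10, 7.46 and 6.22 FPKM, and among the sodium channels it was the β subunit Scn3b with 2.15, 4.83 and 3.03 FPKM. At the other end, Kcna10, Kcnj1 and Kcnk18 had 0 reads in all 9 embryos, and 6 rows had no more than 3 reads in any embryo. Scn4a stands on 2 rows of the table, and the second, with 0 to 3 reads per embryo, was too low to be tested.

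**Figure D1:**
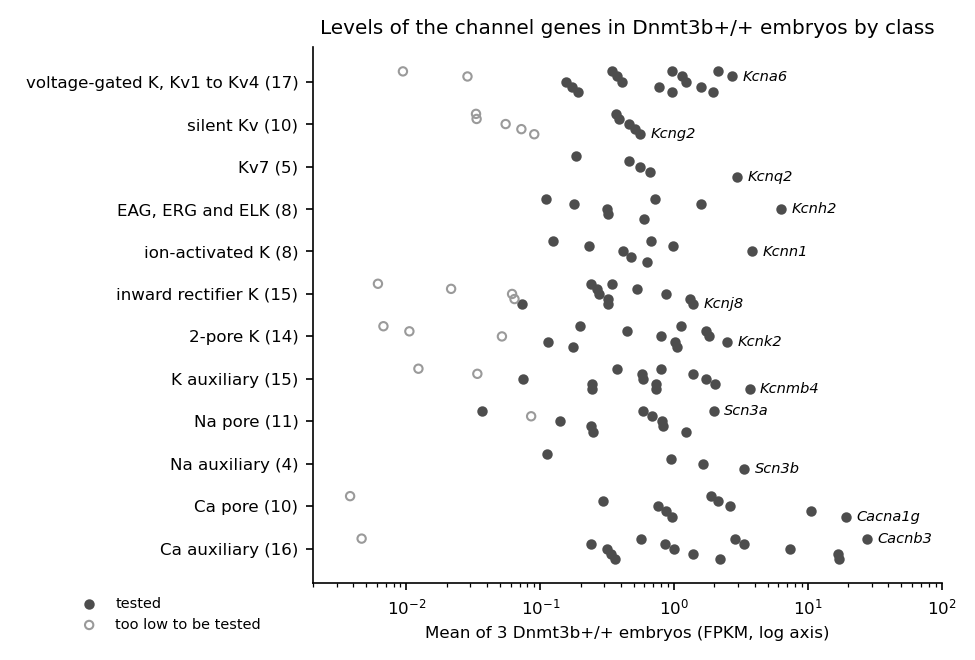
Mean level of each channel gene in 3 Dnmt3b+/+ embryos (x axis, FPKM on a log axis) by channel class (y axis, number of rows in parentheses), with filled points for genes that could be tested and open points for those too low; genes without reads stand at the small value the table gives them in place of 0. The highest gene of each class is named; the calcium channel genes Cacnb3 and Cacna1g lie furthest to the right.

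Channel genes fell under the Dnmt3b-/- label, relative to Dnmt3b+/+, in every class except Kv7 and the sodium β subunits, which had no gene past the thresholds (3 of 5 and 2 of 4 were lower at an unadjusted p under 0.05, limma). Of the 133 rows, 114 reached 0.1 FPKM in 3 or more of the 9 embryos and could be tested. Of these, 22 fell and 0 rose at an adjusted p under 0.05 (limma on log2 of FPKM + 0.1, Benjamini-Hochberg over all 19397 genes tested) and a change of 2-fold or more. The 22 are 19.3% of the channel genes tested, and the same call was made for 3.38% of all genes tested. For rises the count of 0 channel genes stands beside 1.07% of all genes; 4 channel genes were higher at an unadjusted p under 0.05, and 83 were lower, beside 2838 and 4921 of the 19397 genes. Without the fold threshold 56 channel genes were lower, against 16.4% of all genes, and 1 was higher, against 9.41%. The only rise was that of Scn11a. The median log2 fold change of the 114 was −0.65, beside −0.07 over all genes tested, and 104 of the 114 had a negative value, as did 58.1% of all genes tested. All 3 embryos labelled Dnmt3b-/- lay below all 3 Dnmt3b+/+ embryos for 63 channel genes, a pattern seen in 23.8% of all genes tested.

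The count by level showed that no gene of the highest band was among the 22. None of the 5 genes with at least 10 FPKM in Dnmt3b+/+ was called (limma; 4 were lower at an unadjusted p under 0.05), 5 of 34 with 1 to 10 FPKM were, and 17 of 72 with 0.1 to 1 FPKM. Over all genes tested the shares called lower in these bands were 1.52%, 3.38% and 4.66%. The Dnmt3b+/+ values of the 22 rested on at least 34 reads in each embryo. By role, 19 of the 22 are pore-forming subunits (of 82 tested) and 3 are auxiliary (of 32 tested), beside 3.38% of all genes tested called lower.

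The channel class with the most calls was the Kv1 to Kv4 group, with 6 of 15 genes tested and a median log2 fold change of −0.97. The share of all genes tested with the same call was 3.38%. Ion-activated potassium channels had 3 of 8, silent Kv subunits 2 of 5, the EAG, ERG and ELK group 2 of 8, inward rectifiers and 2-pore channels 1 of 11 each, and potassium channel auxiliary subunits 1 of 13. Pore-forming sodium channels had 2 of 10, pore-forming calcium channels 2 of 9 and calcium channel auxiliary subunits 2 of 15. In the Kv7 group (0 of 5) and the sodium β subunits (0 of 4) the medians were −0.43 and −0.26. Each class median was below 0, and in the Kv1 to Kv4, EAG and silent groups and both calcium groups every gene tested had a negative value.

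**Figure D2:**
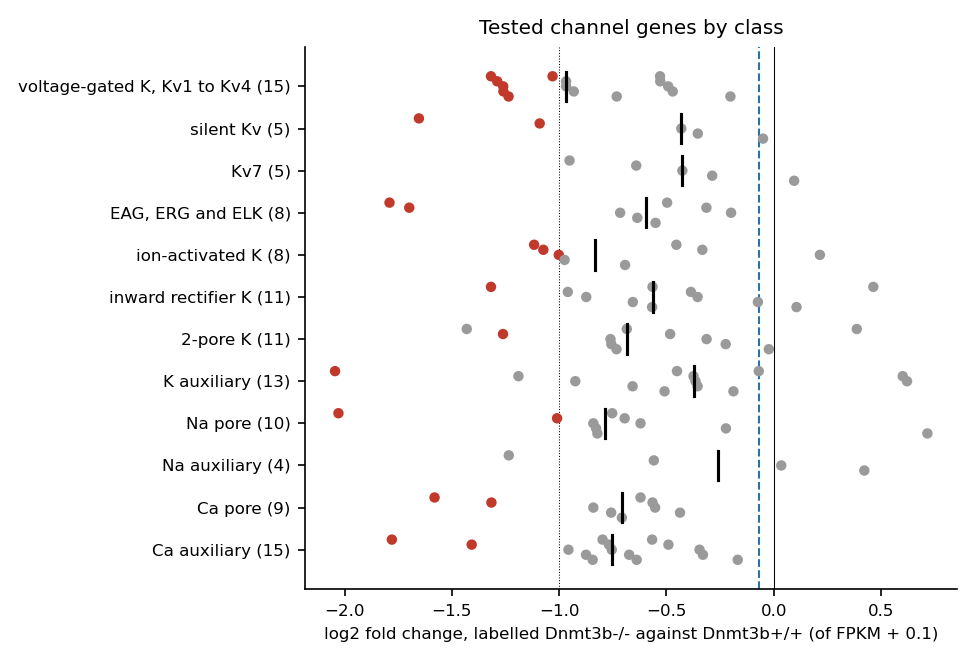
log2 fold change of the 114 channel genes tested, embryos labelled Dnmt3b-/- against Dnmt3b+/+ (x axis), by class (y axis, number tested in parentheses); red points passed both thresholds, grey points did not, black bars are class medians, the dotted line marks a 2-fold decrease and the dashed line the median of all genes tested (−0.07). All 12 class medians lie to the left of the dashed line.

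Within the embryos labelled Dnmt3b-/-, embryo 1 stood closer to Dnmt3b+/+ than the other two. It had the highest level of the group in all 22 called genes and in 87 of the 114 tested, against 47.7% of all genes tested. The median difference of the 22 genes from the Dnmt3b+/+ mean was −0.85 on the log2 scale in embryo 1, −1.51 in embryo 2 and −1.58 in embryo 3. Dnmt3b+/+ embryo 2 was the highest of its group in 74 of the 114, against 35.1% of all genes tested. Without embryo 1 of the Dnmt3b-/- label 37 channel genes were called lower, and without embryos 2 and 3 of that label 15 and 17 were. Without Dnmt3b+/+ embryo 1 the count was 30, and without embryo 2 or 3 of that genotype it was 16. Over all genes tested the count of 655 lower became 1174, 443 and 427 without embryos 1, 2 and 3 labelled Dnmt3b-/-, and 816, 591 and 504 without those of Dnmt3b+/+. Summed levels of 10 pan-neuronal markers were also highest in these embryos: 415 FPKM in embryo 1 labelled Dnmt3b-/-, against 217 and 189.9 FPKM in embryos 2 and 3, and 499 FPKM in Dnmt3b+/+ embryo 2, against 248 and 309.9 FPKM in the others. None of the 10 neuronal markers was called lower (limma; 2 were lower at an unadjusted p under 0.05), and all 10 had negative values. Their part in the channel results was not tested.

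**Figure D3:**
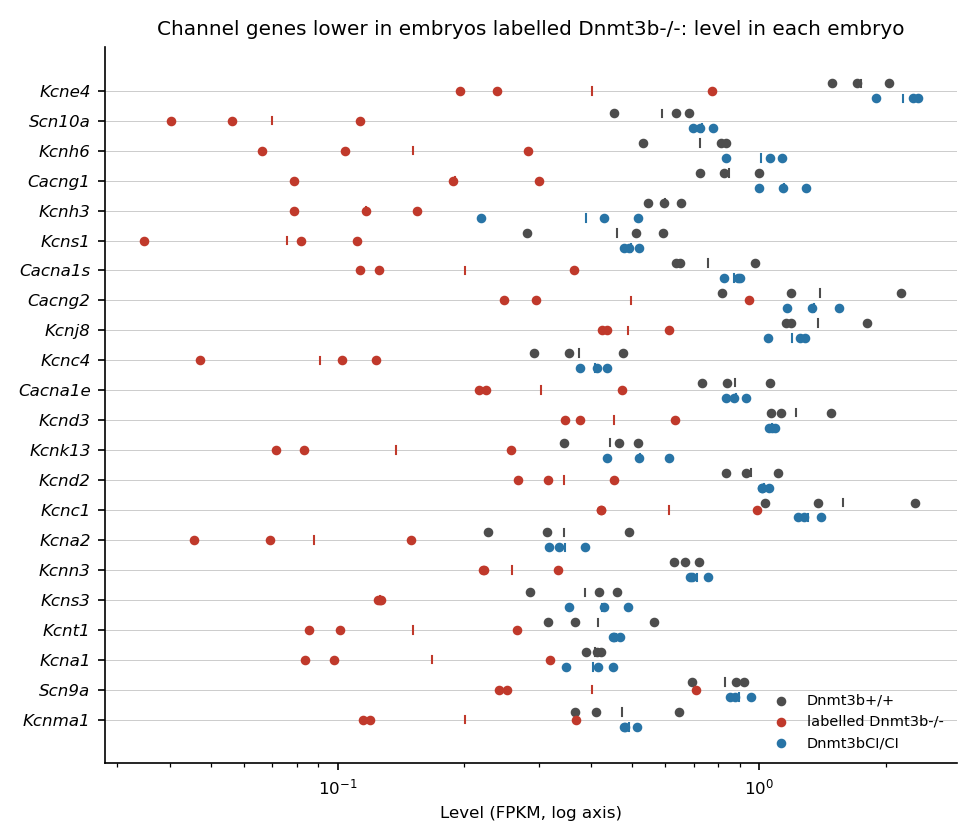
Level of each of the 22 called channel genes (y axis) in each of 9 embryos (x axis, FPKM on a log axis), with dots for embryos and short bars for the mean of 3. Red dots lie to the left of the grey and blue ones, apart from the highest red dot for Cacng2, Scn9a and Kcnma1, which lies among the grey ones.

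Potassium channels that repolarize neurons were among the clearest decreases. Kcnd2 and Kcnd3 encode Kv4.2 and Kv4.3, which carry the transient A-type current. Kcnd2 had 0.835, 1.11 and 0.930 FPKM in Dnmt3b+/+ and 0.453, 0.315 and 0.268 FPKM under the Dnmt3b-/- label. Kcnd3 had 1.07, 1.49 and 1.13 FPKM and 0.633, 0.375 and 0.347 FPKM. In both genes the groups were fully separated, with log2 fold changes of −1.26 ± 0.16 (SE, adjusted p = 0.0020, limma) and −1.29 ± 0.20 (adjusted p = 0.0036, limma). The third member, Kcnd1, fell by less than 2-fold (log2 fold change −0.49 ± 0.11). Kcnd3 exons overlap an antisense gene, Kcnd3os, and the strandedness of the counting is not given, so reads of the pair cannot be told apart.

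The fast-spiking Kv3 channels included 2 calls. Kcnc4, which encodes Kv3.4, had 0.293, 0.476 and 0.355 FPKM in Dnmt3b+/+ and 0.123, 0.103 and 0.0471 FPKM under the Dnmt3b-/- label, again without overlap (log2 fold change −1.32 ± 0.20, adjusted p = 0.0032, limma). Kcnc1, which encodes Kv3.1, had 1.03, 2.34 and 1.38 FPKM and 0.989, 0.423 and 0.422 FPKM (log2 fold change −1.26 ± 0.34, adjusted p = 0.028, limma). Here embryo 1 labelled Dnmt3b-/- lay just under the lowest Dnmt3b+/+ embryo, and the call was made in 9 of 17 alternative settings of pseudocount, filter, scaling, block and embryos used.

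Of the Shaker-type Kv1 genes, Kcna1 and Kcna2 encode the axonal subunits Kv1.1 and Kv1.2. Kcna2 had 0.228, 0.491 and 0.315 FPKM in Dnmt3b+/+ and 0.150, 0.0692 and 0.0456 FPKM under the Dnmt3b-/- label (log2 fold change −1.24 ± 0.26, adjusted p = 0.011, limma). Kcna1 was steady in Dnmt3b+/+ with 0.389, 0.412 and 0.421 FPKM, and had 0.320, 0.0837 and 0.0980 FPKM under the Dnmt3b-/- label (log2 fold change −1.03 ± 0.29, adjusted p = 0.031, limma). The call for Kcna1 was made in 4 of 17 alternative settings. Kcna6 and Kcna4 lay just short of the fold threshold on the log2(FPKM + 0.1) scale, both with a log2 fold change of −0.97 and with adjusted p of 0.0063 and 0.0047 (limma). Their group means were 1.98-fold and 3.92-fold lower. In Kcna6, the highest of the family, the values were 2.57, 2.83 and 2.75 FPKM against 1.82, 1.25 and 1.04 FPKM.

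Among the ether-à-go-go relatives, Kcnh6 (ERG2) and Kcnh3 (ELK2) fell and Kcnh2 did not pass the test. Kcnh6 had 0.530, 0.815 and 0.833 FPKM in Dnmt3b+/+ and 0.283, 0.0663 and 0.104 FPKM under the Dnmt3b-/- label (log2 fold change −1.79 ± 0.30, adjusted p = 0.0053, limma). Kcnh3 had 0.544, 0.594 and 0.655 FPKM against 0.154, 0.0788 and 0.117 FPKM (log2 fold change −1.70 ± 0.24, adjusted p = 0.0028, limma); its exons overlap the oppositely oriented gene Mcrs1. Both were separated without overlap. Kcnh2 had 6.83, 5.23 and 4.35 FPKM under the Dnmt3b-/- label and overlapped the Dnmt3b+/+ values given above (log2 fold change −0.20 ± 0.18, adjusted p = 0.44, limma).

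Silent Kv subunits form no channel on their own and modify other Kv channels. Both tested members of the Kcns family fell. Kcns1 had 0.281, 0.511 and 0.592 FPKM in Dnmt3b+/+ and 0.111, 0.0347 and 0.0818 FPKM under the Dnmt3b-/- label (log2 fold change −1.65 ± 0.24, adjusted p = 0.0031, limma). Kcns3 had 0.418, 0.286 and 0.459 FPKM against 0.127, 0.126 and 0.125 FPKM, with little spread under that label (log2 fold change −1.09 ± 0.17, adjusted p = 0.0035, limma). The remaining tested silent subunits, Kcnf1, Kcng1 and Kcng2, had log2 fold changes of −0.35, −0.43 and −0.05 and did not pass the test; Kcng3, Kcng4, Kcns2, Kcnv1 and Kcnv2 were too low to be tested.

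The potassium channels opened by intracellular ions were split by member. Kcnn3, the small-conductance calcium-activated channel SK3, fell from 0.630, 0.722 and 0.666 FPKM to 0.334, 0.223 and 0.222 FPKM (log2 fold change −1.12 ± 0.14, adjusted p = 0.0017, limma). SK2 (Kcnn2) lay just short of the fold threshold on the log2(FPKM + 0.1) scale (log2 fold change −0.97 ± 0.20), though its group mean was 2.35-fold lower. SK1 (Kcnn1), the highest of the family at 3.40, 4.89 and 3.21 FPKM against 4.12, 2.64 and 2.40 FPKM, overlapped. Kcnt1, the sodium-activated channel Slack, had 0.316, 0.562 and 0.365 FPKM against 0.267, 0.102 and 0.0857 FPKM (log2 fold change −1.07 ± 0.27, adjusted p = 0.022, limma). Kcnt1 was called in 7 of 17 alternative settings. Among the 2-pore leak channels, Kcnk13 (THIK-1) had 0.346, 0.465 and 0.516 FPKM against 0.258, 0.0832 and 0.0713 FPKM and was the only one called of 11 tested (log2 fold change −1.26 ± 0.28, adjusted p = 0.014, limma). Kcnk9 (TASK-3) had a larger mean difference with a wider spread, 0.5002, 1.20 and 0.696 FPKM against 0.581, 0.156 and 0.0816 FPKM, and its adjusted p was 0.05004 (limma), just over the threshold. Kcnk2 (TREK-1), the highest of the family, fell by less than 2-fold (log2 fold change −0.76 ± 0.15, adjusted p = 0.0087, limma).

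Channels of the vessel wall showed a decrease in the vascular ATP-sensitive pair. Kcnj8 encodes Kir6.1, the pore of the ATP-sensitive potassium channel of vascular smooth muscle and pericytes. It had 1.16, 1.19 and 1.80 FPKM in Dnmt3b+/+, 0.610, 0.425 and 0.436 FPKM under the Dnmt3b-/- label and 1.25, 1.29 and 1.05 FPKM in Dnmt3bCI/CI. The first and second of these groups did not overlap (log2 fold change −1.32 ± 0.19, adjusted p = 0.0029, limma). Its sulfonylurea receptor, Abcc9, had 0.971, 1.51 and 1.27 FPKM against 0.407, 0.528 and 0.468 FPKM (log2 fold change −1.23 ± 0.20, adjusted p = 0.0041, limma). Kcnma1, the large-conductance BK channel, had 0.366, 0.646 and 0.410 FPKM against 0.368, 0.119 and 0.115 FPKM. Embryo 1 labelled Dnmt3b-/- overlapped Dnmt3b+/+ in Kcnma1, whose log2 fold change of −1.002 ± 0.31 (adjusted p = 0.043, limma) met the thresholds in 2 of 17 alternative settings, and whose exons overlap the oppositely oriented 4930519K11Rik. Kcna5 had a log2 fold change of −0.73 ± 0.19, and Kcnmb1, the smooth muscle BK subunit, was too low to be tested. Of 7 mural cell markers, Cspg4 and Myh11 fell, beside 3.38% of all genes tested. The summed level of the markers ran from 71.6 to 91.7 FPKM in Dnmt3b+/+ and from 63.3 to 74.2 FPKM under the Dnmt3b-/- label. The median log2 fold change of the 7 was −0.84, and 5 were negative. Cspg4, a marker of pericytes, had 1.96, 2.28 and 2.51 FPKM against 0.965, 0.820 and 0.680 FPKM (log2 fold change −1.36 ± 0.13), without overlap. Rgs5, another pericyte marker, had 1.42, 2.61 and 1.94 FPKM against 1.29, 1.12 and 0.656 FPKM and missed the fold threshold (log2 fold change −0.90 ± 0.28), whereas Pdgfrb, with 11.1, 10.2 and 12.9 FPKM against 10.1, 11.1 and 10.4 FPKM, overlapped (log2 fold change −0.11 ± 0.09). The part of mural cells in the Kcnj8 result was not tested.

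The lowest log2 fold change on the log2(FPKM + 0.1) scale was that of Kcne4, a single-span subunit that inhibits several Kv channels. It had 1.49, 2.03 and 1.71 FPKM in Dnmt3b+/+, 0.774, 0.239 and 0.195 FPKM under the Dnmt3b-/- label and 1.89, 2.32 and 2.39 FPKM in Dnmt3bCI/CI. Every Dnmt3bCI/CI and Dnmt3b+/+ embryo lay above every embryo labelled Dnmt3b-/-, and the mean was 4.33-fold lower in the latter than in Dnmt3b+/+ (log2 fold change −2.05 ± 0.36, adjusted p = 0.0063, limma). Other members of this family, Kcne1, Kcne2 and Kcne3, had log2 fold changes of 0.60, −1.19 and 0.62 and did not pass the test. Its promoter is shown for its place on that scale; the ratio of group means was larger in Scn10a, Kcns1, Kcnh3, Kcnh6 and Cacng1. The window is chr1:78816661-78816960 on the plus strand of GRCm38.p6, from 250 bases before to 50 after the start of the gene in RefSeq, written 5′ to 3′ with CG dinucleotides, the sites of DNA methylation, in capitals; it holds 9.
Kcne4: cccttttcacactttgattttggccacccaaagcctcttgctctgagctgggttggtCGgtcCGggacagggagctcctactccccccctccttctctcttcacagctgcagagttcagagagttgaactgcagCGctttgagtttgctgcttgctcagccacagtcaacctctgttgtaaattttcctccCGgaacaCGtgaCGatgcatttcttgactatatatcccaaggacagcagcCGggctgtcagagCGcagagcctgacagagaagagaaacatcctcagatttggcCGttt

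Sensory neuron channels included the largest ratio between groups and the single increase. Scn10a and Scn11a encode Nav1.8 and Nav1.9, tetrodotoxin-resistant sodium channels of nociceptors, and lie next to each other on chromosome 9, both on the minus strand. Scn10a had 0.453, 0.635 and 0.682 FPKM in Dnmt3b+/+, 0.113, 0.0561 and 0.0402 FPKM under the Dnmt3b-/- label and 0.696, 0.725 and 0.777 FPKM in Dnmt3bCI/CI. Its mean was 8.44-fold lower under the Dnmt3b-/- label (log2 fold change −2.03 ± 0.19, adjusted p = 4.6e-04, limma), and no group overlapped another in the FPKM values. These levels rest on 161, 252 and 213 reads against 36, 19 and 13. Scn11a went the other way, with 0.0302, 0.0406 and 0.0387 FPKM in Dnmt3b+/+, 0.106, 0.127 and 0.141 FPKM under the Dnmt3b-/- label and 0.0376, 0.0117 and 0.0175 FPKM in Dnmt3bCI/CI. The Scn11a values come from 8, 12 and 9 reads, 25, 32 and 34 reads, and 10, 3 and 4 reads. All 3 embryos of the Dnmt3b-/- label lay above the other 6, and the log2 fold change of 0.72 ± 0.13 had an adjusted p of 0.0078 (limma) but missed the fold threshold on this scale, which understates changes of low genes. With a pseudocount of 0.01 FPKM Scn11a was called higher.

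The promoters of the neighbours that moved in opposite directions are printed below on the same terms, with CG in capitals. The Scn10a window, chr9:119718983-119719282 on the minus strand, holds 11 CG dinucleotides, and the Scn11a window, chr9:119825407-119825706 on the minus strand, holds 3. Over the first window of each of 27025 genes the median was 7.
Scn10a: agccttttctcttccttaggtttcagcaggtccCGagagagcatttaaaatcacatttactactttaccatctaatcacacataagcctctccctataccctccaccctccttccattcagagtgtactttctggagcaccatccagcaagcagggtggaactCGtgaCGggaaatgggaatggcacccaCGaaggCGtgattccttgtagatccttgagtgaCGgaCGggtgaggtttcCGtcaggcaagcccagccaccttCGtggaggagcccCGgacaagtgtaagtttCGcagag
Scn11a: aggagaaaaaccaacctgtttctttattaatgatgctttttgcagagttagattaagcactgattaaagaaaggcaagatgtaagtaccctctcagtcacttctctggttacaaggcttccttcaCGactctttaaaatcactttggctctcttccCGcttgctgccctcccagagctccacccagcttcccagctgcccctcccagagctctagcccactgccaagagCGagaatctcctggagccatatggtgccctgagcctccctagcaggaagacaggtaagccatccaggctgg

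Scn9a, which encodes Nav1.7, the third sodium channel of this group, had 0.693, 0.920 and 0.884 FPKM in Dnmt3b+/+ and 0.709, 0.241 and 0.253 FPKM under the Dnmt3b-/- label. Embryo 1 of the latter lay within the Dnmt3b+/+ range, and the log2 fold change of −1.01 ± 0.30 (adjusted p = 0.041, limma) met the thresholds in 2 of 17 alternative settings; its exons overlap the oppositely oriented Gm13629. With Kcns1 and Kcns3, both described above, 4 of the 5 tested genes of the sensory neuron list fell, against 3.38% of all genes, and Kcnk18 had no reads. Of 9 markers of sensory ganglia, 2 fell, among them Avil, beside 3.38% of all genes, and the other 7 did not pass both thresholds. All 9 had negative values, with a median log2 fold change of −0.96. The summed level of the 9 markers was 29.9 to 54.2 FPKM in Dnmt3b+/+, and 43.1, 16.0 and 11.3 FPKM in embryos 1, 2 and 3 labelled Dnmt3b-/-. Embryo 1 had a ganglion marker sum and a Scn9a value inside the Dnmt3b+/+ range, and its Scn10a value was below every Dnmt3b+/+ embryo. The part of sensory neurons in these results was not tested.

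None of the other sodium channels passed both thresholds. Scn1a, Scn7a, Scn8a and the first row of Scn4a were lower at an adjusted p under 0.05, with log2 fold changes from −0.62 to −0.83. The neuronal channels Scn3a and Scn2a had log2 fold changes of −0.75 and −0.84 and did not pass the test, Scn3a with 1.51, 2.67 and 1.74 FPKM against 1.55, 0.887 and 0.950 FPKM. Among β subunits, Scn3b did not pass the test, with 2.15, 4.83 and 3.03 FPKM against 2.59, 0.892 and 0.894 FPKM (log2 fold change −1.24 ± 0.40, adjusted p = 0.053, limma). Scn2b had 1.63, 1.68 and 1.65 FPKM against 1.64, 1.79 and 1.65 FPKM, and the 95% confidence interval of its log2 fold change ran from −0.19 to 0.26.

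Skeletal muscle channel subunits of the T-tubule, which couple the action potential to calcium release, fell in 2 of 5 tested members, beside 3.38% of all genes. Cacna1s encodes Cav1.1, the voltage sensor of excitation-contraction coupling. It had 0.636, 0.650 and 0.981 FPKM in Dnmt3b+/+, 0.364, 0.126 and 0.113 FPKM under the Dnmt3b-/- label and 0.901, 0.825 and 0.889 FPKM in Dnmt3bCI/CI (log2 fold change of the first pair −1.58 ± 0.29, adjusted p = 0.0074, limma). Cacng1, the γ subunit of the same complex, had 0.825, 0.723 and 1.00 FPKM, 0.301, 0.188 and 0.0790 FPKM, and 1.14, 0.999 and 1.29 FPKM (log2 fold change −1.78 ± 0.27, adjusted p = 0.0034, limma). In both genes the embryos labelled Dnmt3b-/- lay below the other 6. Cacna1s exons overlap the oppositely oriented Gm37759. The muscle sodium channel Scn4a had 0.119, 0.113 and 0.189 FPKM against 0.0228, 0.0285 and 0.0523 FPKM, a difference that passed the p threshold without reaching 2-fold on the log2 scale with a pseudocount (log2 fold change −0.83 ± 0.20, adjusted p = 0.018, limma). With a pseudocount of 0.01 FPKM Scn4a was called lower. Cacna2d1 and Cacnb1, which are shared with other tissues, had log2 fold changes of −0.80 (adjusted p = 0.0038, limma) and −0.67 (adjusted p = 0.080, limma).

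Several partners of this complex also fell. Of 10 triad genes, 3 were called lower, beside 3.38% of all genes tested. These were Ryr1 (the calcium release channel), Casq2 (a calcium buffer of the store) and Atp2a1 (the calcium pump of fast muscle), with log2 fold changes of −1.03, −1.38 and −1.34. Ryr1 had 1.97, 2.27 and 2.47 FPKM against 1.70, 0.725 and 0.893 FPKM. Markers of skeletal muscle moved the same way, since 8 of 10 fell, beside 3.38% of all genes tested. Their summed level was 75.1 to 119.6 FPKM in Dnmt3b+/+, 65.4, 26.3 and 27.3 FPKM under the Dnmt3b-/- label and 121 to 130.3 FPKM in Dnmt3bCI/CI. Their part in the channel results was not tested. The promoter of Cacna1s is shown as that of the pore-forming subunit, with 9 CG dinucleotides in capitals at chr1:136052561-136052860 on the plus strand. It also holds 1 CAGCTG, a sequence that MyoD-type factors can bind and that reads the same on both strands; the Kcne4 and Scn11a windows hold 1 each as well, and 16.1% of the first windows of all genes hold it.
Cacna1s: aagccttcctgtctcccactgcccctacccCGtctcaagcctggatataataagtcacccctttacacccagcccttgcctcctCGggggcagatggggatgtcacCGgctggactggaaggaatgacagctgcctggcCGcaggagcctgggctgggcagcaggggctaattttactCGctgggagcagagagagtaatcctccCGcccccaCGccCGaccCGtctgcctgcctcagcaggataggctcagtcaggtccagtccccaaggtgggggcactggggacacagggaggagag

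Neuronal calcium channels showed 1 decrease past the thresholds in the pore-forming subunits. Cacna1e, the R-type channel Cav2.3, had 0.731, 1.06 and 0.841 FPKM in Dnmt3b+/+ and 0.473, 0.216 and 0.225 FPKM under the Dnmt3b-/- label (log2 fold change −1.32 ± 0.23, adjusted p = 0.0063, limma). Its relatives of the presynaptic terminal, Cacna1a (P/Q-type) and Cacna1b (N-type), had log2 fold changes of −0.57 ± 0.24 and −0.71 ± 0.29 and did not pass the test. The L-type Cacna1d was tight in both groups, with 0.926, 1.00 and 0.968 FPKM against 0.546, 0.533 and 0.510 FPKM, and fell by less than 2-fold (log2 fold change −0.76 ± 0.09, adjusted p = 0.0016, limma). The T-type Cacna1g and Cacna1h fell to 14.7, 10.6 and 12.7 FPKM and to 8.35, 6.53 and 6.60 FPKM, with log2 fold changes of −0.62 ± 0.10 and −0.55 ± 0.10 (adjusted p = 0.0050 and 0.0064, limma). Both lay below every Dnmt3b+/+ embryo.

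Cacng2 encodes stargazin, which carries AMPA receptors to synapses. It was the only 1 of 6 such subunits past the thresholds, beside 3.38% of all genes tested called lower. It had 0.817, 2.17 and 1.19 FPKM in Dnmt3b+/+ and 0.947, 0.248 and 0.295 FPKM under the Dnmt3b-/- label, so embryo 1 overlapped (log2 fold change −1.41 ± 0.44, adjusted p = 0.048, limma). The call held in 4 of 17 alternative settings, and its exons overlap the oppositely oriented A730060N03Rik. Cacng7 and Cacng8 fell by less than 2-fold (log2 fold changes −0.33 and −0.49), and Cacng3, Cacng4 and Cacng5 did not pass the test. The highest channel gene, Cacnb3, had 27.3, 19.5 and 18.8 FPKM under the Dnmt3b-/- label and overlapped Dnmt3b+/+ (log2 fold change −0.35 ± 0.16, adjusted p = 0.14, limma).

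Among 15 channel genes of the cardiac action potential, Kcnd3 was the one that passed both thresholds, beside 3.38% of all genes tested called lower. Several others passed the p threshold with smaller folds, among them the inward rectifiers Kcnj2 and Kcnj3 (log2 fold changes −0.57 and −0.87) and the L-type channel Cacna1c (−0.44). A few heart channel genes varied more between embryos of 1 genotype than between genotypes. Kcne1, the subunit of the slow delayed rectifier, had 0.00631, 0.207 and 0.00798 FPKM in Dnmt3b+/+, 0.0314, 0.228 and 0.185 FPKM under the Dnmt3b-/- label and 0.0976, 0.159 and 0.00814 FPKM in Dnmt3bCI/CI. The heart markers summed to 2.12, 107 and 25.1 FPKM, 24.9, 119.9 and 65.7 FPKM, and 79.2, 100 and 2.43 FPKM in the same order. For both, the 5 highest embryos were Dnmt3b+/+ embryo 2, embryos 2 and 3 labelled Dnmt3b-/- and Dnmt3bCI/CI embryos 1 and 2. Kcng2, which is tied to the heart by no list used here, had its 5 highest values in the same embryos, from 0.545 to 1.11 FPKM, against 0.218 to 0.324 FPKM in the other 4. Neither gene passed the test (log2 fold changes 0.60 ± 0.52 and −0.05 ± 0.54), and the heart markers had 0 called of 8 (limma; 0 also at an unadjusted p under 0.05). The part of heart tissue in these values was not tested.

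Kcnn4, the intermediate-conductance channel of red blood cells and other non-excitable cells, had its lowest value in the embryo that was lowest for hepatocyte markers. It had 1.72, 0.130 and 1.10 FPKM in Dnmt3b+/+, 0.613, 1.32 and 0.670 FPKM under the Dnmt3b-/- label and 1.15, 1.40 and 1.56 FPKM in Dnmt3bCI/CI. The hepatocyte sums were 215, 0.276 and 117 FPKM, 40.99, 86.4 and 43.6 FPKM, and 161.5, 120.2 and 151 FPKM. Both the channel and the markers were thus highest in Dnmt3b+/+ embryo 1 and lowest in embryo 2, and their relation was not tested.

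**Figure D4:**
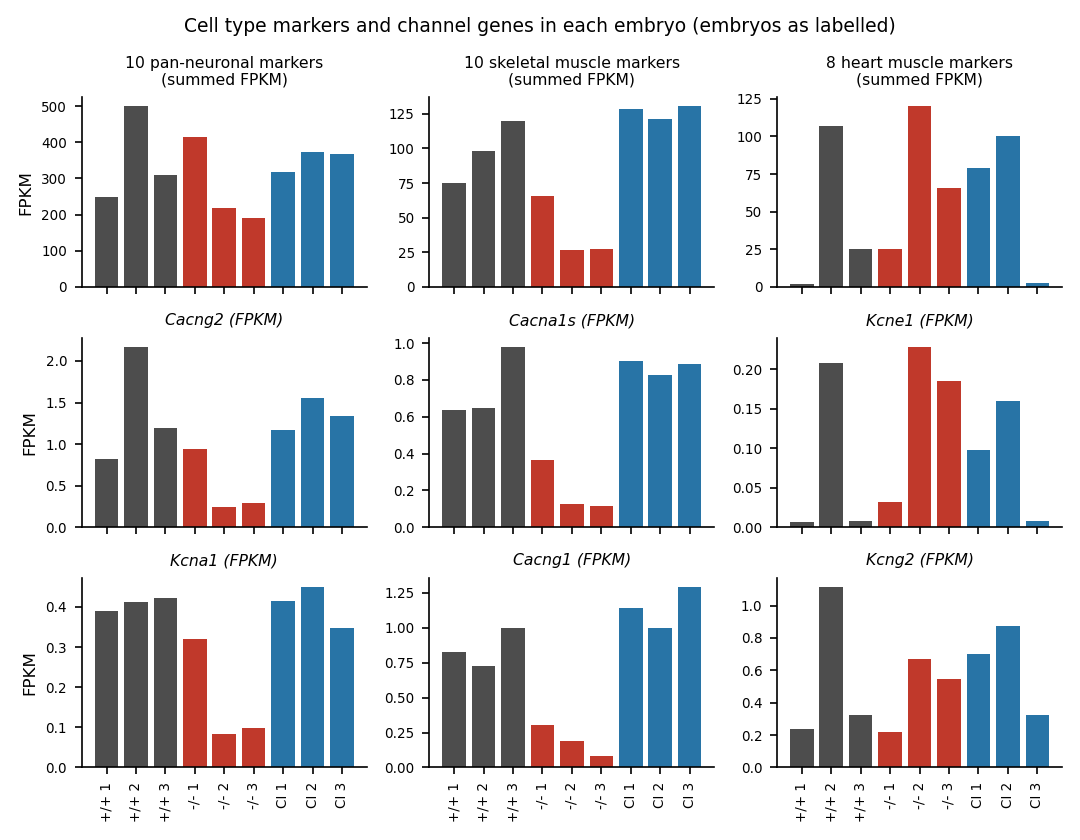
Summed level of 3 marker lists (top row) and the level of 2 channel genes per list (lower rows), as bars per embryo (y axes in FPKM, x axis the 9 embryos as labelled; grey Dnmt3b+/+, red labelled Dnmt3b-/-, blue Dnmt3bCI/CI). Embryo 1 labelled Dnmt3b-/- has a neuronal sum of 415 FPKM inside the Dnmt3b+/+ range. Its Cacng2 bar lies inside that range too, and its Kcna1 bar lies below it. The red bars of the skeletal muscle sum, Cacna1s and Cacng1 are below all others. Kcne1 and Kcng2 are high in the 5 embryos with the highest heart sums.

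The catalytically inactive protein gave another picture. In Dnmt3bCI/CI against Dnmt3b+/+, 0 channel genes passed the thresholds in either direction (limma), beside 0.129% of all genes tested called higher and 0% called lower. Without the fold threshold the count was also 0 both ways, beside 0.129% and 0.0155% of all genes, and at an unadjusted p under 0.05, 2 channel genes were higher and 4 lower, beside 524 and 495 of all 19397 genes tested. The median log2 fold change of the 114 was −0.004, beside 0.02 over all genes tested, and 108 of the 114 lay within 0.5 of 0. The values furthest from 0 were those of Kcnj13 (−0.89) and Kcnn4 (0.88). Kcnj13, an inward rectifier of choroid plexus and other epithelia, had 0.282, 0.364 and 0.181 FPKM in Dnmt3b+/+ and 0.0702, 0.127 and 0.102 FPKM in Dnmt3bCI/CI, without overlap, and 0.119, 0.0741 and 0.0777 FPKM under the Dnmt3b-/- label. Its adjusted p was 0.49 in Dnmt3bCI/CI and 0.013 under the Dnmt3b-/- label (limma), with log2 fold changes of −0.89 and −0.96. Kcna3, a Kv1 channel known from lymphocytes, also had a lower value in Dnmt3bCI/CI (1.43, 0.802 and 1.12 FPKM against 2.07, 2.13 and 1.65 FPKM), with an adjusted p of 0.62 (limma). These genes were named after their values were seen.

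For the 22 genes called in the embryos labelled Dnmt3b-/-, the log2 fold changes in Dnmt3bCI/CI against the same Dnmt3b+/+ embryos lay between −0.57 (Kcnh3) and 0.44 (Kcnh6). Kcnh3 was the 1 gene of the 22 in which all 3 Dnmt3bCI/CI embryos (0.429, 0.219 and 0.515 FPKM) lay below all 3 Dnmt3b+/+ embryos, a pattern found in 5.65% of all genes tested; in 2 of the 22 all 3 Dnmt3bCI/CI embryos lay above all 3 Dnmt3b+/+ embryos, as in 7.53% of all genes. The 95% confidence interval of the Kcnh3 log2 fold change ran from −1.12 to −0.01. For Kcne4 the interval in Dnmt3bCI/CI ran from −0.50 to 1.15 and for Scn10a from −0.15 to 0.72, both away from the values of −2.05 and −2.03 under the Dnmt3b-/- label. Where the spread was wide, as in Cacng2 (from −0.96 to 1.07), a change of nearly 2-fold was not detectable.

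**Figure D5:**
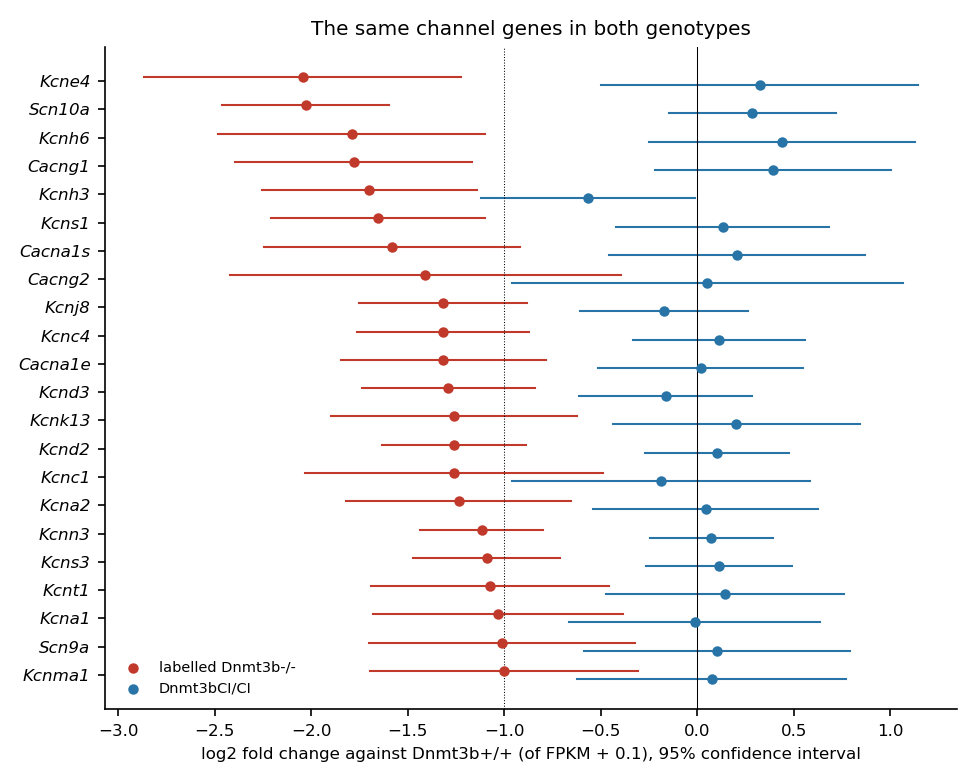
log2 fold change against Dnmt3b+/+ (x axis, with 95% confidence intervals) of the 22 channel genes (y axis) in embryos labelled Dnmt3b-/- (red) and in Dnmt3bCI/CI (blue); both use the same 3 Dnmt3b+/+ embryos. Blue points lie between −0.57 and 0.44 and red points between −2.05 and −1.002.

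The embryos labelled Dnmt3b-/- and the Dnmt3bCI/CI embryos were also compared directly, which tests the difference between the genotypes. Here 30 of the 114 channel genes fell (26.32%, against 4.32% of all genes) and 0 rose (against 1.1%); at an unadjusted p under 0.05, 4 were higher and 75 lower, beside 2906 and 5227 of the 19397 genes. All 3 embryos labelled Dnmt3b-/- lay below all 3 Dnmt3bCI/CI embryos in 72 of the 114, a pattern seen in 29.5% of all genes tested. The 22 genes described above were all among the 30, but they had been chosen for low values in the same embryos. The 8 further genes were Cacna2d3, Cacng3, Cacng6, Kcna4, Kcnip1, Kcnk9, Scn3b and Scn7a. Cacng6, a γ subunit related to that of skeletal muscle, had 0.283, 0.325 and 0.413 FPKM in Dnmt3b+/+, 0.228, 0.107 and 0.112 FPKM under the Dnmt3b-/- label and 0.485, 0.631 and 0.553 FPKM in Dnmt3bCI/CI. Its log2 fold change between the last pair was −1.42 ± 0.21 (adjusted p = 0.0024, limma). Without the fold threshold, Scn11a, Scn4b and Kcnj4 were higher under the Dnmt3b-/- label than in Dnmt3bCI/CI (3 genes, beside 9.7% of all genes), with log2 fold changes of 0.88, 0.73 and 0.64. This comparison and the one against Dnmt3b+/+ share the 3 embryos labelled Dnmt3b-/-. The count of 30 became 39 without embryo 1 of that label and 19 without embryo 3. Over all genes tested the count of 838 lower became 1346 and 563.

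Channel genes often lie in clusters, and 53 of the member genes lie within 500 kb of another member, in 22 clusters. Neighbours differed in size of change in several of them. In the pair of sodium channel clusters on chromosome 2 the log2 fold changes were −0.75 for Scn3a, −0.84 for Scn2a, −0.62 for Scn1a, −1.01 for Scn9a and −0.82 for Scn7a, all in 1 direction. On chromosome 3, Kcna2 and Kcnc4 fell, their neighbour Kcna3 had −0.47 and Kcna10 had no reads. On chromosome 11, Cacng1 fell (−1.78), whereas the next genes, Cacng4 and Cacng5, had −0.57 and −0.64. The chromosome 9 cluster with Scn10a and Scn11a was the one in which neighbours passed the p threshold in opposite directions.

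Partner genes of the channels had mostly negative values as well. Of 33 tested in 5 lists, 4 fell (Abcc9, Ryr1, Casq2 and Atp2a1, all given above), beside 3.38% of all genes, and 0 rose. Of the 33, 31 had negative values, with a median log2 fold change of −0.77, and in 17 all 3 embryos labelled Dnmt3b-/- lay below all 3 Dnmt3b+/+ embryos, as in 23.8% of all genes. None of 6 pacemaker and leak channel genes, 6 auxiliary proteins of Kv4 and Nav channels and 9 clustering proteins was called lower (limma), while 6, 6 and 5 of them were lower at an unadjusted p under 0.05. Of 79 markers of 11 cell types tested, 14 fell, beside 3.38% of all genes, and 2 rose, beside 1.07%, both of them embryonic globin genes, Hbb-bh1 and Hba-x. The median log2 fold change of the 79 was −0.32, and 52 were negative, as were 58.1% of all genes tested. Neural progenitor, endothelial, heart muscle, hepatocyte and macrophage lists had no member called (limma); at an unadjusted p under 0.05 they had 0, 0, 0, 0 and 5 lower members and 1, 1, 0, 0 and 0 higher ones.

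RefSeq promoter windows of 300 bases were matched by symbol for 97 of the 132 channel symbols, and for 18 of the 22 called. The median number of CG dinucleotides was 14 in the 18 called, 10 in the 65 tested and not called and 4 in the 14 not tested, beside 7 in the first windows of 27025 genes. The range among the 18 was wide, from 9 in Kcne4, Cacna1s, Kcnj8, Kcnk13, Kcns3 and Scn9a to 41 in Kcnc1. CAGCTG was found in 6 of the 18 called, 17 of the 65 tested and not called and 26 of the 97 channel windows (26.8%), beside 16.1% of the first windows of all genes. TATAAA, searched on both strands, was found in 0 of the 18 called, 3 of the 65 tested and not called and 4 of the 97 channel windows (4.12%), beside 14.2% of the first windows of all genes. These are descriptions of the letters in these windows.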

How the data were processed

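RNA-seq was available for 9 whole E11.5 embryos, 3 per genotype, and the other 9 samples of the series were not analysed here. The authors trimmed the paired-end reads, aligned them with STAR to mm10 and counted genes with SeqMonk. The deposited values are linear FPKM, in 1 table with a column per embryo; tool and aligner versions and the strandedness are not given in the sources used here. Genes without reads hold a floor worth 0.9 reads, and reads were worked back from the steps of the values for all 133 channel rows (within 0.01 of a whole number). Since FPKM are not counts, the authors' DESeq2 was not run. The 19397 genes that reached 0.1 FPKM in 3 or more of the 9 embryos entered a fit of log2(FPKM + 0.1) by limma 3.58.1 (R 4.3.3), with all 9 embryos, genotype as the only term and the variance moderated with a trend. Calls needed a change of 2-fold or more and, after Benjamini-Hochberg adjustment, a p under 0.05. The test was checked on simulated data. Genotypes come from the sample labels. The labels also number the embryos within each genotype.

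The members, gene lists and tests were chosen with earlier results of these data known. Named genes are those called against Dnmt3b+/+, the highest of each family, members of lists by role (muscle, heart, vessel wall, sensory neuron, axon, presynaptic terminal, AMPA receptor subunits and silent subunits) and the 3 uncalled genes nearest each threshold; others are named as examples. Coordinates and promoters are those of GRCm38.p6, the build also called mm10, with promoters from RefSeq and overlaps of exons from GENCODE. Protein sequences were not used here. Some genes that the rule names are not reported here. Alternatives were other pseudocounts, filters, scalings and samples. Tables were handled with pandas 2.3.3 and numpy 2.4.6 in python 3.11.15 and plotted with matplotlib 3.10.9.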

Additional observations from a re-analysis of the deposited data

How the results depend on the processing

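In embryos labelled Dnmt3b-/- against Dnmt3b+/+, the 22 channel genes called lower became 56 with no fold threshold, 33 with a pseudocount of 0.01 FPKM, 0 with a pseudocount of 1 FPKM (which shrinks folds at these levels), 8 of 42 tested with at least 1 FPKM in 3 embryos, 18 after median-of-ratios scaling, 15 after quantile normalization and 16 with only the compared groups or without a filter. With 1 embryo left out they ranged from 15 (without embryo 2 labelled Dnmt3b-/-) to 37 (without embryo 1 of that label). The count of 0 higher became 1 (Scn11a) with no fold threshold and with a pseudocount of 0.01 FPKM. Against Dnmt3bCI/CI, the 30 lower became 59 with no fold threshold, 2 with a pseudocount of 1 FPKM, 8 with at least 1 FPKM, 13 after quantile normalization and 19 to 39 with 1 embryo left out; the 0 higher became 3, 3 and 1 with no fold threshold, a pseudocount of 0.01 FPKM and quantile normalization. In Dnmt3bCI/CI against Dnmt3b+/+ the counts were 0 under each alternative. The replicate block gave 17 lower against Dnmt3b+/+, of which 16 were among the 22 (without Cacng2, Kcna1, Kcnc1, Kcnma1, Kcnt1 and Scn9a, and with Kcne2), and 20 against Dnmt3bCI/CI. After centring within genotype, the mean correlation of same-numbered embryos was −0.0867 against 0.0477 for others, with 1 of 9 pairs over 0.1. Centring on groups of 3 ties these means to each other, so they cannot tell whether same-numbered embryos shared a litter or batch. Over 78 named genes, 1208 of 1361 alternative values kept direction and side of the thresholds, 91 lost and 54 gained a call, and 8 changed sign, none of them called: Cacnb2 (0.032 after quantile normalization), Kcng2 (0.004 after median-of-ratios scaling, 0.177 after quantile normalization and −0.41 to 0.509 with 1 embryo left out, positive without Dnmt3b+/+ embryo 2 and without embryo 1 labelled Dnmt3b-/-), Kcnj5 (−0.189 to 0.486) and Scn2b (−0.004 to 0.056), each negative without embryo 2 of that label, and Kcnq1 (−0.004 to 0.279), negative without Dnmt3b+/+ embryo 3. Depth limits the genes below 0.1 FPKM, where 19 of 133 rows could not be tested.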
